A study of Sus scrofa with 8 samples.

Results

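The 10 epithelial keratins considered here were KRT4, KRT5, KRT7, KRT8, KRT14, KRT15, KRT17, KRT18, KRT19 and KRT20, a set of basal, simple, transitional, squamous and enterocyte keratins. They were taken by symbol, with no threshold on a measured value, in a choice made with earlier results of these data known. Of the 10, KRT4, KRT7, KRT8, KRT15, KRT18 and KRT20 were matched to a row through their pig Ensembl gene, out of 31907 genes in all. All 6 passed the filter on low counts, as did 16549 genes in total, and each of the 6 also passed it when any 1 of the 4 tissue groups was left out. KRT5, KRT14, KRT17 and KRT19 were not matched to a row and are not analysed here, so nothing below describes the basal pair KRT5 and KRT14 or the simple keratin KRT19.

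Keratins are the intermediate filament proteins of epithelial cells. A filament forms only when a type I keratin pairs with a type II keratin, so the genes of both types are active together in an epithelial cell. KRT8 (type II) and KRT18 (type I) form the filaments of simple epithelia, KRT7 (type II) accompanies them in urothelium, mesothelium and ducts, and KRT20 (type I) marks enterocytes and, in the urothelium, the superficial umbrella cells. KRT4 (type II) belongs to the suprabasal layers of moist stratified mucosa and KRT15 (type I) to basal cells of stratified epithelium. On the Sscrofa11.1 assembly the RefSeq annotation places KRT7 on chromosome 5 from 17553192 to 17570582, KRT4 on chromosome 5 from 18091742 to 18099086, KRT8 on chromosome 5 from 18172423 to 18180277 and KRT18 on chromosome 5 from 18217686 to 18221432. KRT15 lies on chromosome 12 from 21124605 to 21130247 and KRT20 on chromosome 12 from 21584683 to 21593583. The RefSeq entry for KRT7 is listed as a long non-coding RNA and the other 5 as protein-coding genes.

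The series measured messenger RNA in 8 libraries from Guizhou minipigs aged 8 months, in a study that used the animal's own peritoneum to replace the mucosa of a urinary reservoir made from ileum. The groups held 2 libraries each: neobladder mucosa of the experimental animals (MN-Exp), neobladder mucosa of the control animals (MN-Ctrl), normal peritoneum (NP) and mucosa of the normal bladder (MNB). The labels do not say how the control reservoir was lined, how long after surgery tissue was taken, or whether the 2 libraries of a group came from separate animals, so the p-values measure only the spread between these samples. They give no batch or date. Totals ran from 7.94 to 11.9 M counts per library. Levels below are counts per M counts (CPM) scaled between libraries by trimmed mean of M-values (TMM). On that scale 3 counts in a library equalled 0.224 to 0.561 CPM. MN-Ctrl replicate 2 stood apart from the other libraries, with a TMM factor of 0.45 against 0.839 to 1.24 elsewhere, and the comparisons of keratins with MN-Ctrl are therefore also given without it. Tests are edgeR's quasi-likelihood test with Benjamini-Hochberg adjustment over all 16549 tested genes, and a gene was called at an adjusted p under 0.05. Because the rows carry no transcript lengths, levels are compared between tissues for each keratin and never between keratins.

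Marker genes were set beside the tissue labels. The 10 epithelial markers, EPCAM and CDH1 among them, summed to 3648 and 4529 CPM in MN-Exp, 4435 and 2376 CPM in MN-Ctrl, 83.1 and 136 CPM in NP, and 4573 and 3492 CPM in MNB. NP thus lay below every mucosal library. All 8 urothelial markers had counts in MN-Exp and MNB, while SNX31 was at 0 counts in MN-Ctrl and NP and UPK1A at 0 counts in NP. Of 7 mesothelial markers 3 were matched, and their sum was 30.4 and 30.2 CPM in NP against at most 0.187 CPM in any other library. WT1, a transcription factor of mesothelium, carried most of that sum at 27.7 and 25.3 CPM in NP, and CALB2 was at 0 counts in NP. These libraries are whole tissue, so fewer cells of a type and less RNA per cell cannot be told apart.

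**Figure D1:**
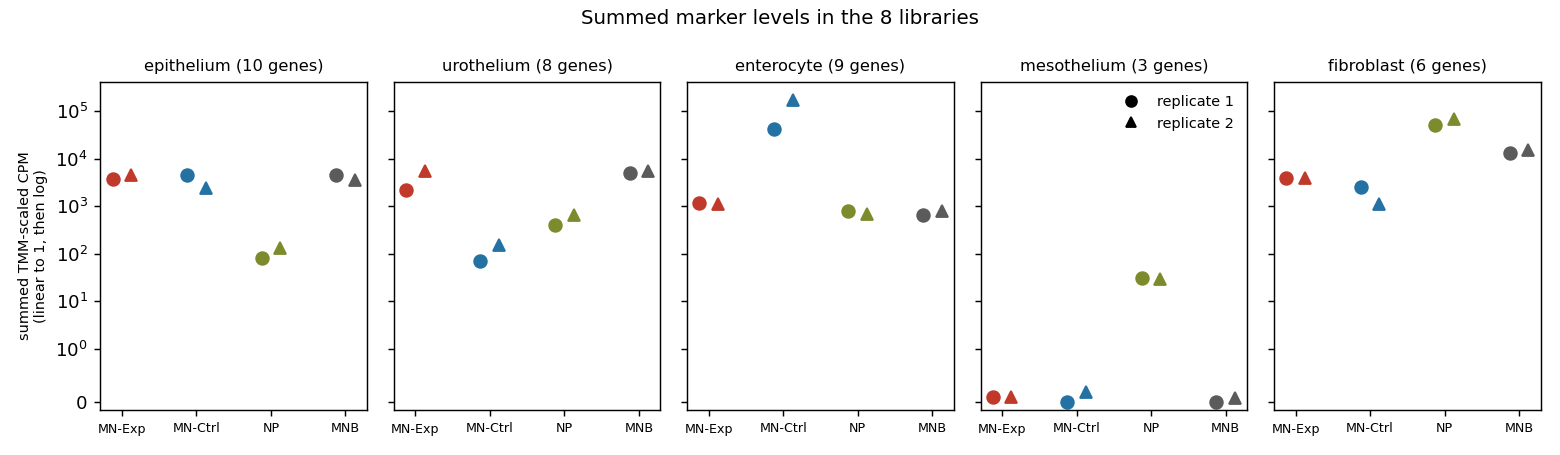
Summed TMM-scaled CPM of 5 marker lists (y axis, linear to 1 and logarithmic above) in the 2 libraries of each group (x axis; circle, replicate 1; triangle, replicate 2), with the number of matched genes above each panel. NP lies lowest for epithelial markers and highest for mesothelial and fibroblast markers, and MN-Ctrl lies highest for enterocyte markers.

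KRT7 separated the tissues into high, intermediate and low groups. It stood at 2193 and 2925 CPM in MN-Exp, 7.94 and 26.8 CPM in MN-Ctrl, 158 and 359 CPM in NP, and 4818 and 3559 CPM in MNB. The order was therefore MNB, MN-Exp, NP and MN-Ctrl, with no overlap between the libraries of any 2 groups. MN-Exp was 149-fold higher than MN-Ctrl (log2 fold change 7.22, SE 0.86, adjusted p = 0.000341) and 9.88-fold higher than NP (log2 fold change 3.31, SE 0.72, adjusted p = 0.00798). Only the neighbours MN-Exp and MNB were not told apart, with a log2 fold change of -0.71, a 95% interval from -2.17 to 0.75 and an adjusted p = 0.922. MN-Ctrl was 243-fold lower than MNB (adjusted p = 0.000234) and 15-fold lower than NP (adjusted p = 0.00238), and NP was 16.2-fold lower than MNB (adjusted p = 0.00419). All 8 urothelial markers were called higher in MN-Exp than in MN-Ctrl, where 10.4% of all tested genes were. All 8 were lower in MN-Ctrl than in MNB, where 11.1% of all tested genes were. Between MN-Ctrl and NP, where KRT7 was lower in MN-Ctrl, 1 of the 8 was higher (UPK3A) and 2 were lower (UPK1B and GATA3). Of all tested genes 21.6% were higher and 20.6% lower in that comparison. The 8 markers summed to 2182 and 5464 CPM in MN-Exp, 71.4 and 150 CPM in MN-Ctrl, 397 and 639 CPM in NP, and 4964 and 5386 CPM in MNB. UPK1B alone gave 308 and 572 CPM of the NP sums. The part of these markers in the KRT7 differences was not tested. Of the calls against NP, that of MN-Ctrl was made under every alternative, whereas MN-Exp over NP had an adjusted p = 0.0549 without MN-Exp replicate 2 and 0.091 without NP replicate 1, and NP over MNB had 0.0568 without NP replicate 1.

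KRT8, the type II partner in simple epithelia, was abundant in all 8 libraries. It stood at 1432 and 1784 CPM in MN-Exp, 6586 and 5028 CPM in MN-Ctrl, 937 and 2269 CPM in NP, and 2253 and 1615 CPM in MNB. Both MN-Ctrl libraries lay above the other 6, whose values overlapped between groups. Peritoneum, with far fewer epithelial transcripts by the other markers, held KRT8 at 1603 ± 942 CPM, against 1934 ± 451 CPM in MNB (SD, n = 2 each). The log2 fold change of NP over MNB was -0.27, with a 95% interval from -1.55 to 1.01 (adjusted p = 0.782), and that of MN-Exp over NP was 0.00, with an interval from -1.28 to 1.29 (adjusted p = 0.999). MN-Exp over MNB gave -0.27, with an interval from -1.55 to 1.02 (adjusted p = 0.996). These intervals still hold differences of more than 2-fold in either direction. KRT8 was 3.61-fold lower in MN-Exp than in MN-Ctrl (log2 fold change -1.85, SE 0.6, adjusted p = 0.0496) and 3.62-fold higher in MN-Ctrl than in NP (log2 fold change 1.86, SE 0.6, adjusted p = 0.0295). MN-Ctrl over MNB gave a log2 fold change of 1.59 (SE 0.59) that was not called (adjusted p = 0.0789). All 3 depended on the setting. Scaled by library totals, the adjusted p was 0.17 for MN-Exp over MN-Ctrl and 0.179 for MN-Ctrl over NP, and DESeq2 called MN-Ctrl over MNB (adjusted p = 0.00213).

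KRT18, the type I partner of KRT8, followed a different order. It stood at 95.1 and 181 CPM in MN-Exp, 76.3 and 110 CPM in MN-Ctrl, 3.05 and 1.51 CPM in NP, and 135 and 110 CPM in MNB. Both NP libraries, with 30 and 17 counts, lay far below the other 6, which held 586 counts or more. KRT18 was 60.5-fold higher in MN-Exp than in NP (log2 fold change 5.92, SE 0.56, adjusted p = 8.84e-05), 40.8-fold higher in MN-Ctrl than in NP (log2 fold change 5.35, SE 0.55, adjusted p = 7.05e-05) and 53.7-fold lower in NP than in MNB (log2 fold change -5.75, SE 0.56, adjusted p = 0.00012). Among the 3 mucosae no difference was called. The log2 fold change was 0.57 for MN-Exp over MN-Ctrl (95% interval -0.42 to 1.55, adjusted p = 0.384), 0.17 for MN-Exp over MNB (-0.81 to 1.15, adjusted p = 0.996) and -0.4 for MN-Ctrl over MNB (-1.38 to 0.59, adjusted p = 0.551). In peritoneum, therefore, KRT8 did not differ from MN-Exp or MNB beyond the spread between libraries, while KRT18 was 40.8-fold to 60.5-fold lower than in the mucosae. The epithelial marker EPCAM moved with KRT18, at 477 ± 65.4 CPM in MN-Exp, 569 ± 249 CPM in MN-Ctrl, 2.32 ± 0.116 CPM in NP and 339 ± 12.6 CPM in MNB (SD, n = 2 each), and its part was not tested. Keratins are a family of close paralogues, and how reads that match several genes were counted is not given in the sources used here, so the counts of KRT8 and KRT18 in any tissue are uncertain to that extent.

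**Figure D2:**
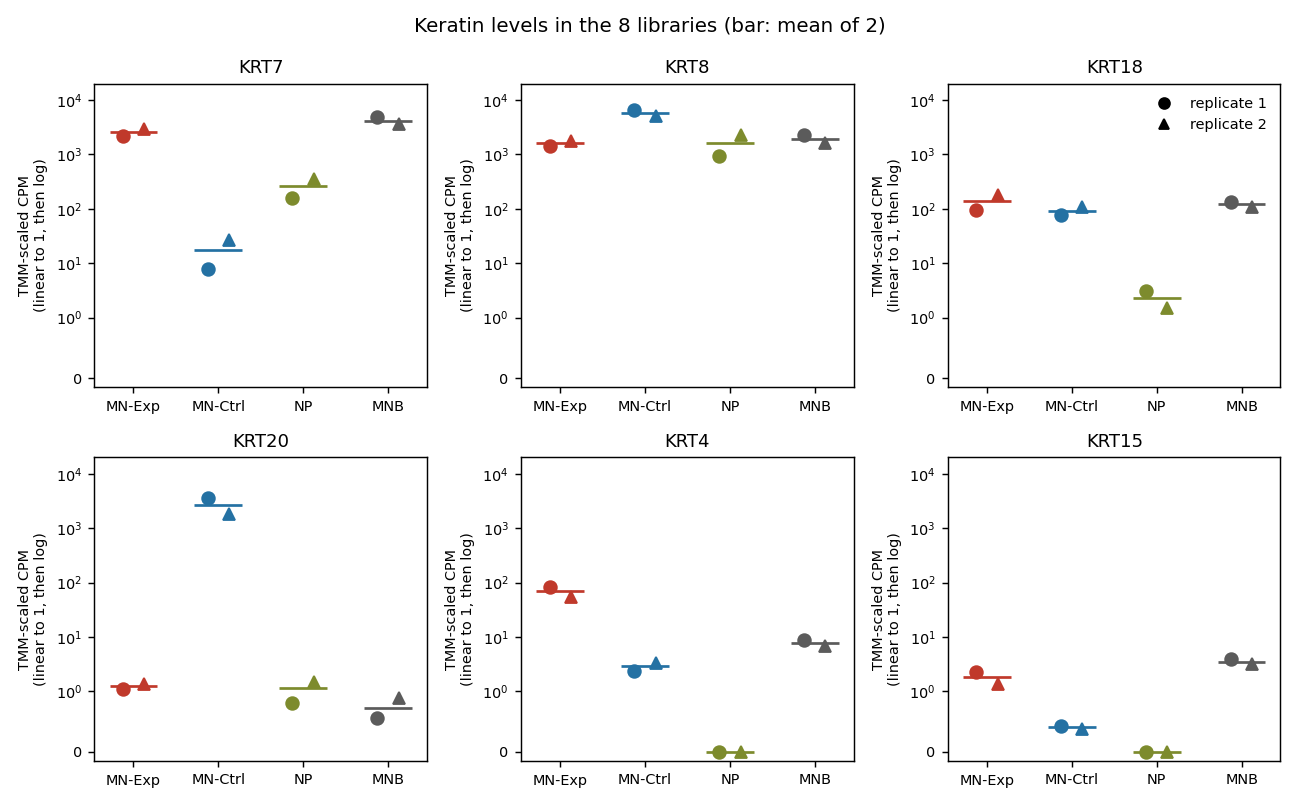
TMM-scaled CPM of the 6 keratins (y axis, linear to 1 and logarithmic above) in each library by group (x axis; circle, replicate 1; triangle, replicate 2; bar, mean of 2). KRT7 is lowest and KRT20 highest in MN-Ctrl, KRT18 is lowest in NP, and KRT4 and KRT15 are at 0 in NP.

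KRT20 was abundant in the control neobladder alone. It stood at 1.1 and 1.39 CPM in MN-Exp, 3565 and 1859 CPM in MN-Ctrl, 0.814 and 1.51 CPM in NP, and 0.565 and 0.895 CPM in MNB. Outside MN-Ctrl no library held more than 17 counts of KRT20, while the MN-Ctrl libraries held 32780 and 9935. MN-Exp was 2160-fold lower than MN-Ctrl (log2 fold change -11.08, SE 0.78, adjusted p = 2.94e-05). MN-Ctrl was 3640-fold higher than MNB (log2 fold change 11.83, SE 0.81, adjusted p = 2.38e-05) and 2290-fold higher than NP (log2 fold change 11.16, SE 0.78, adjusted p = 1.79e-05). The low groups were not told apart, with log2 fold changes of 0.75 for MN-Exp over MNB (95% interval -0.66 to 2.18, adjusted p = 0.9), 0.08 for MN-Exp over NP (-1.3 to 1.47, adjusted p = 0.941) and 0.67 for NP over MNB (-0.76 to 2.11, adjusted p = 0.5). KRT20 is known in other species as a marker of umbrella cells, yet MNB, where the uroplakins and the rest of the urothelial list were detected, held only 7 and 12 counts of it. Of the 9 enterocyte markers matched of 11, 8 were called lower in MN-Exp than in MN-Ctrl, where 11.3% of all tested genes were. Likewise 8 were higher in MN-Ctrl than in MNB, where 11.2% of all tested genes were. The exception in both was GPA33, at 156 and 228 CPM in MN-Exp, 352 and 145 CPM in MN-Ctrl, 0.102 and 0.267 CPM in NP, and 200.1 and 198 CPM in MNB. LGALS4 was among the 8 but stood at 817 and 688 CPM in MN-Exp and 321 and 398 CPM in MNB, where KRT20 was near 1 CPM. The 9 markers summed to 1155 and 1107 CPM in MN-Exp, 42180 and 167900 CPM in MN-Ctrl, 788 and 670 CPM in NP, and 655 and 788 CPM in MNB. APOA1 alone gave 741 and 627 CPM of the NP sums. CDX2, the transcription factor of intestinal identity, was at 0 counts in MN-Exp and in MNB, FABP2 was at 0 counts in MNB, and the part of the enterocyte markers in the KRT20 difference was not tested. FABP6, the ileal bile acid binding protein, gave 31310 and 157300 CPM of the MN-Ctrl sums. VIL1, the villin of the brush border, stood at 2428 and 829 CPM in MN-Ctrl. It was higher in MN-Ctrl replicate 1, as KRT20, APOA4, CDH17 and GPA33 were. CDX2, FABP2, FABP6, APOA1 and LGALS4 were higher in MN-Ctrl replicate 2.

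KRT4, the keratin of moist stratified mucosa, was highest in the experimental neobladder. It stood at 84 and 53.5 CPM in MN-Exp, 2.39 and 3.37 CPM in MN-Ctrl, and 8.63 and 6.72 CPM in MNB, and both NP libraries were at 0 counts, which allows up to 0.142 CPM over that group. No 2 groups overlapped, and the order MN-Exp, MNB, MN-Ctrl and NP held with every step called, though not under every alternative given below. MN-Exp was 24.1-fold higher than MN-Ctrl (log2 fold change 4.59, SE 0.48, adjusted p = 0.000239) and 8.95-fold higher than MNB (log2 fold change 3.16, SE 0.43, adjusted p = 0.034). MN-Ctrl was 2.7-fold lower than MNB (log2 fold change -1.43, SE 0.45, adjusted p = 0.0464). Against 3 counts over the 2 NP libraries, KRT4 was at least 483-fold higher in MN-Exp (adjusted p = 3.73e-05), at least 20.2-fold higher in MN-Ctrl (adjusted p = 0.000337) and at least 53.9-fold lower in NP than in MNB (adjusted p = 0.000188). Of 7 markers of squamous differentiation 6 were matched and 5 tested. IVL, TGM1 and DSG3 were called higher in MN-Exp than in MN-Ctrl, where 10.4% of all tested genes were. TGM3 had a log2 fold change of -1.61 that was not called (adjusted p = 0.279). In MN-Exp over MNB 0 of the 5 were called by edgeR, where 0.0967% of all tested genes were, and 2 had an unadjusted p under 0.05. The 6 summed, with IVL giving 2055 and 4561 CPM in MN-Exp, to 2110 and 4630 CPM in MN-Exp, 41.9 and 33.1 CPM in MN-Ctrl, 8.55 and 8.37 CPM in NP, and 690 and 464 CPM in MNB, with SBSN at 0 counts in MNB and CNFN at 0 counts in NP, and their part in the KRT4 difference was not tested. The difference between MN-Exp and MNB kept its size without any 1 of the 4 libraries concerned, at log2 fold changes from 2.8 to 3.45, but not its call. The adjusted p was 0.291 without MN-Exp replicate 1, 0.192 without MN-Exp replicate 2, 0.422 without MNB replicate 1 and 0.449 without MNB replicate 2. The call of MN-Ctrl under MNB was lost in each fit without 1 of the libraries of MN-Exp, NP or MNB and without MN-Ctrl replicate 1. It was also lost with DESeq2 (adjusted p = 0.0543) and with its size factors in edgeR (adjusted p = 0.0652). The same held for edgeR on the 2 groups alone (adjusted p = 0.137) and with a replicate block (adjusted p = 0.0648).

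KRT15, a basal keratin, was scarce throughout. It stood at 2.28 and 1.39 CPM in MN-Exp (27 and 15 counts), 0.435 and 0.374 CPM in MN-Ctrl (4 and 2 counts) and 3.87 and 3.13 CPM in MNB (48 and 42 counts), with 0 counts in both NP libraries. The groups did not overlap and ran in the order MNB, MN-Exp, MN-Ctrl and NP. MN-Exp was not told apart from MNB (log2 fold change -0.92, 95% interval -2.7 to 0.84, adjusted p = 0.904) or from MN-Ctrl (log2 fold change 2.14, 95% interval 0.08 to 4.26, adjusted p = 0.127). MN-Ctrl was 8.35-fold lower than MNB (log2 fold change -3.06, SE 0.93, adjusted p = 0.0407). KRT15 was at least 12.9-fold higher in MN-Exp than in NP (adjusted p = 0.00606), at least 2.84-fold higher in MN-Ctrl than in NP (adjusted p = 0.0307) and at least 24.6-fold lower in NP than in MNB (adjusted p = 0.00366). TP63, which encodes a basal-cell transcription factor, was measured at 32.5 and 36.7 CPM in MN-Exp, 0.217 and 0 CPM in MN-Ctrl (2 and 0 counts), 0.305 and 0 CPM in NP (3 and 0 counts) and 31.3 and 46.9 CPM in MNB, and its part in the KRT15 differences was not tested. The MN-Ctrl calls of KRT15 rested on 6 counts, and the adjusted p against MNB was 0.0676 to 0.189 without any 1 library of MN-Exp, MN-Ctrl or MNB.

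The 6 comparisons share libraries with one another and are given side by side. Counted by comparison, 4 of the 6 keratins differed between MN-Exp and MN-Ctrl, where 21.7% of all tested genes did. KRT4 and KRT7 were higher and KRT8 and KRT20 lower in MN-Exp, beside 10.4% of all tested genes higher and 11.3% lower. The libraries of the groups did not overlap for 5 of the 6, as for 60.3% of all tested genes. The median log2 fold change of the 6 was 1.35, beside 0.11 over all tested genes. The 4 keratins were also the ones called without MN-Ctrl replicate 2, with log2 fold changes of 4.76 for KRT4, 8.25 for KRT7, -2.11 for KRT8 and -11.55 for KRT20. Without any 1 of the other libraries except MN-Ctrl replicate 1, KRT8 left the count (adjusted p from 0.0645 to 0.256) and the remaining 3 stayed in it. Over all genes 1720 were higher and 1864 lower in MN-Exp. With library totals alone the split was 2785 higher and 831 lower and the median over all genes 0.89 in place of 0.11, and KRT8 stood at -1.12.

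Between MN-Exp and MNB, KRT4 was the 1 keratin of 6 that differed, and 0.0967% of all tested genes did, 0.0423% higher and 0.0544% lower. The libraries did not overlap for 4 of the 6, against 48.5% of all tested genes, so that a lack of overlap is near the background here. The median log2 fold change was -0.05 for the keratins and 0.02 for all tested genes. The remaining 5 keratins had log2 fold changes between -0.92 and 0.75, with intervals that reached from -2.7 to 2.18. The count was 0 without either MN-Exp or either MNB library, and with library totals alone (KRT4 at an adjusted p of 0.146). Over all genes 7 were higher and 9 lower, and with library totals alone 3 were higher and 2 lower.

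Between MN-Ctrl and MNB, 4 of the 6 keratins differed, against 22.3% of all tested genes. KRT20 was higher and KRT4, KRT7 and KRT15 lower in MN-Ctrl, beside 11.2% of all tested genes higher and 11.1% lower. The libraries did not overlap for any of the 6 keratins, as for 62.7% of all tested genes. The median log2 fold change was -0.91 for the keratins and -0.11 for all tested genes. Without MN-Ctrl replicate 2 the count was again 4 but the genes were KRT4, KRT7, KRT8 and KRT20, with KRT8 at a log2 fold change of 1.83 (adjusted p = 0.0258) and KRT15 at -2.92 (adjusted p = 0.11). KRT7 and KRT20 were called under every alternative, and the count fell to 2 without either MN-Exp or either MNB library. With library totals alone the split over all genes was 763 higher and 3326 lower in place of 1857 and 1829, with the median over all genes at -0.97.

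The 3 comparisons with peritoneum share the NP libraries. In MN-Exp 4 of the 6 keratins differed from NP, all higher (KRT4, KRT7, KRT15 and KRT18), where 24.2% of all tested genes differed, 12.4% higher and 11.8% lower. In MN-Ctrl all 6 differed from NP, KRT7 lower and the other 5 higher, where 42.3% of all tested genes differed, 21.6% higher and 20.6% lower. Between NP and MNB 4 of the 6 differed, all lower in NP (KRT4, KRT7, KRT15 and KRT18), where 21.1% of all tested genes differed, 9.93% higher and 11.1% lower. The libraries did not overlap for 4 keratins in MN-Exp over NP, 6 in MN-Ctrl over NP and 4 in NP over MNB, beside 71.3%, 69.5% and 70% of all tested genes. With KRT4 and KRT15 set to their bounds, the median log2 fold change of the keratins was 3.5 for MN-Exp over NP, 3.1 for MN-Ctrl over NP and -4.32 for NP over MNB, beside -0.01, -0.06 and 0.01 over all tested genes. Without MN-Ctrl replicate 2 all 6 remained called in MN-Ctrl over NP. Without NP replicate 1 or either MNB library, KRT8 and KRT15 left that count, which was then 4. It was 5 without either MN-Exp library, where KRT8 was lost, and without MN-Ctrl replicate 1 or NP replicate 2, where KRT15 was lost. With library totals alone the split over all genes for MN-Ctrl over NP was 1727 higher and 5199 lower in place of 3577 and 3416, with the median at -0.96, and the keratin count was 4.

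**Figure D3:**
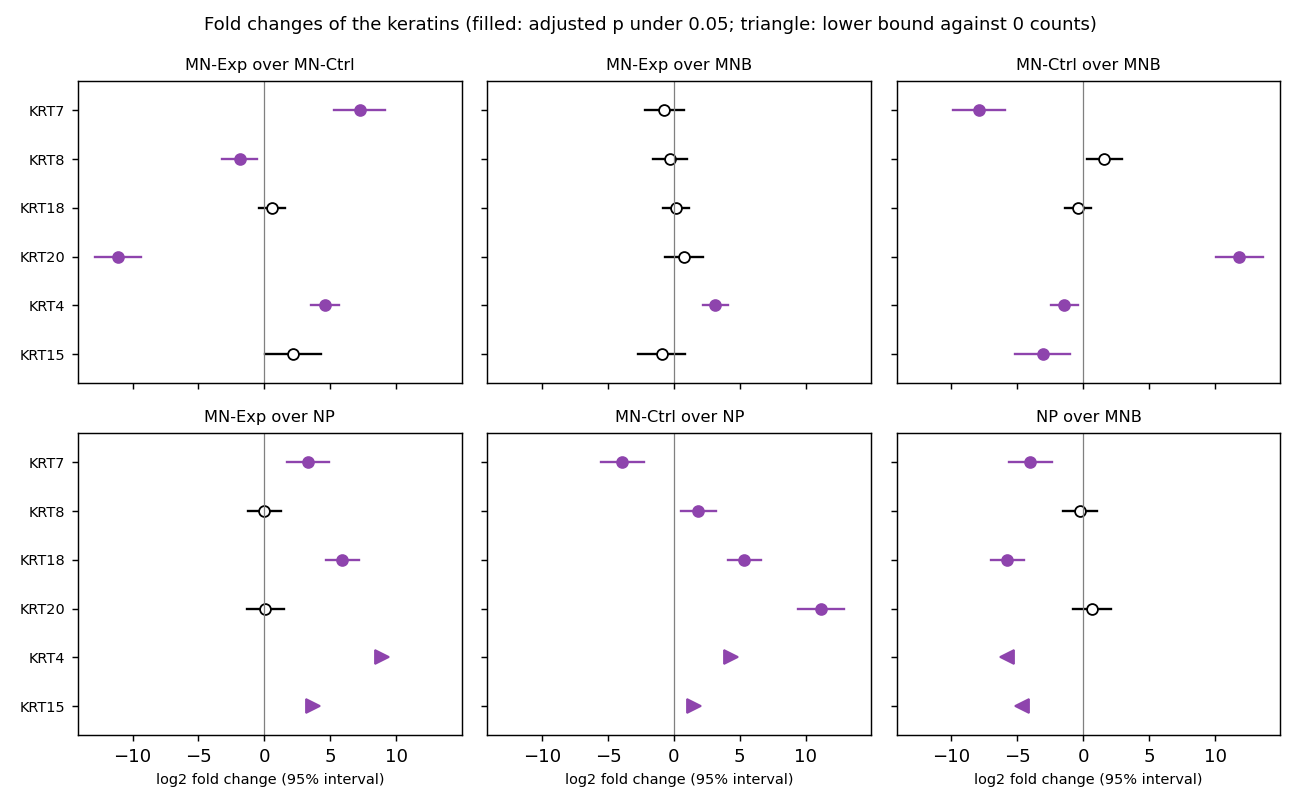
Log2 fold change (x axis) of the 6 keratins (y axis) in the 6 comparisons, with 95% intervals from edgeR; filled points are called, open points are not, and triangles are lower bounds against a group at 0 counts. In MN-Exp over MNB only KRT4 is called, at 3.16.

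The proportions among the keratins were also followed within each library, as counts per 100 counts of KRT8. Such a ratio does not depend on the scaling between libraries, and the unknown lengths cancel when 1 keratin's ratio is compared across libraries. With 2 libraries against 2, an exact permutation test cannot give a two-sided p under 0.333, so these are descriptions. KRT7 per 100 KRT8 counts was 153 and 164 in MN-Exp, 0.121 and 0.532 in MN-Ctrl, 16.9 and 15.8 in NP, and 214 and 220 in MNB. The replicates of MN-Exp, NP and MNB lay close together in this ratio, although the KRT7 levels of the NP libraries, at 158 and 359 CPM, did not. KRT20 per 100 KRT8 counts was 0.0768 and 0.0779 in MN-Exp, 54.1 and 37 in MN-Ctrl, 0.0869 and 0.0667 in NP, and 0.0251 and 0.0554 in MNB. MN-Ctrl thus carried KRT20, and the other tissues carried KRT7, beside their KRT8. KRT18 per 100 KRT8 counts was 6.64 and 10.1 in MN-Exp, 1.16 and 2.18 in MN-Ctrl, 0.326 and 0.0667 in NP, and 5.99 and 6.8 in MNB. In this ratio MN-Ctrl lay below MN-Exp and MNB without overlap, while the scaled KRT18 levels of MN-Exp and MN-Ctrl overlapped. The divisor, KRT8, was itself highest in MN-Ctrl, at 6586 and 5028 CPM, and no KRT18 difference among the mucosae was called. KRT4 per 100 KRT8 counts was 5.86 and 3 in MN-Exp, 0.0363 and 0.067 in MN-Ctrl, and 0.383 and 0.416 in MNB. Both MN-Exp libraries lay above all others in that ratio.

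**Figure D4:**
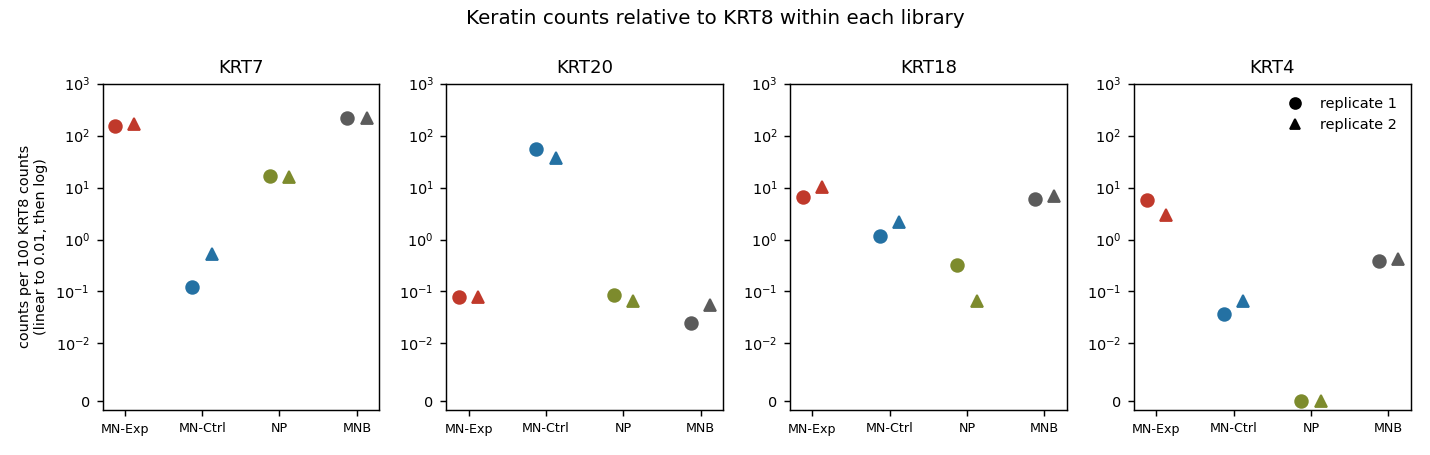
Counts of KRT7, KRT20, KRT18 and KRT4 per 100 KRT8 counts (y axis, linear to 0.01 and logarithmic above) in each library by group (x axis; circle, replicate 1; triangle, replicate 2). KRT7 lies at 153 to 220 in MN-Exp and MNB and at 0.532 or below in MN-Ctrl, where KRT20 lies at 37 and 54.1.

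Of 45 further keratin symbols, 29 were matched to a row and 6 of these passed the filter (KRT10, KRT23, KRT40, KRT80, KRT85 and KRT222). The 23 that did not pass held at most 25 counts in any library. KRT80, a type II keratin, and KRT23, a type I keratin, were low in MN-Ctrl and NP. KRT80 stood at 88.9 and 74.2 CPM in MN-Exp, 2.94 and 3.18 CPM in MN-Ctrl, 1.73 and 3.47 CPM in NP, and 72 and 23.8 CPM in MNB. It was 26.6-fold higher in MN-Exp than in MN-Ctrl (log2 fold change 4.74, SE 0.61, adjusted p = 0.000529) and 31-fold higher than in NP (adjusted p = 0.000352), and was not told apart from MNB (log2 fold change 0.77, 95% interval -0.35 to 1.89, adjusted p = 0.82). KRT23 stood at 19.2 and 32.1 CPM in MN-Exp, 1.63 and 2.99 CPM in MN-Ctrl, 0.102 and 0.801 CPM in NP, and 20.3 and 16.6 CPM in MNB. It was 11.4-fold higher in MN-Exp than in MN-Ctrl (log2 fold change 3.51, SE 0.63, adjusted p = 0.00335) and 53.7-fold higher than in NP (adjusted p = 0.000382), and its log2 fold change over MNB was 0.47 (95% interval -0.72 to 1.66, adjusted p = 0.953). KRT10, the type I keratin of cornified epidermis, stood at 44 and 54.8 CPM in MN-Exp, 45.8 and 89.4 CPM in MN-Ctrl, 21.7 and 28.7 CPM in NP, and 22.4 and 29.6 CPM in MNB. It was 2.59-fold higher in MN-Ctrl than in MNB (adjusted p = 0.0372) and 2.68-fold higher than in NP (adjusted p = 0.0191). Without MN-Ctrl replicate 2 the log2 fold change over MN-Ctrl was 4.71 for KRT80 (adjusted p = 0.00584) and 3.89 for KRT23 (adjusted p = 0.00422) in MN-Exp, and that of KRT10 in MN-Ctrl was 0.88 over MNB (adjusted p = 0.0839) and 0.95 over NP (adjusted p = 0.0392). KRT40 was at 0 counts in both MN-Ctrl libraries and at most 1.85 CPM in any other library, and was at least 7.03-fold lower in MN-Ctrl than in MNB (adjusted p = 0.0248, and 0.0634 without MN-Ctrl replicate 2). Of the 6, KRT80 and KRT23 were higher and none lower in MN-Exp over MN-Ctrl, beside 10.4% of all tested genes higher and 11.3% lower. None was called in MN-Exp over MNB, where 0.0967% of all tested genes were, and 1 of the 6 had an unadjusted p under 0.05 there.

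**Figure D5:**
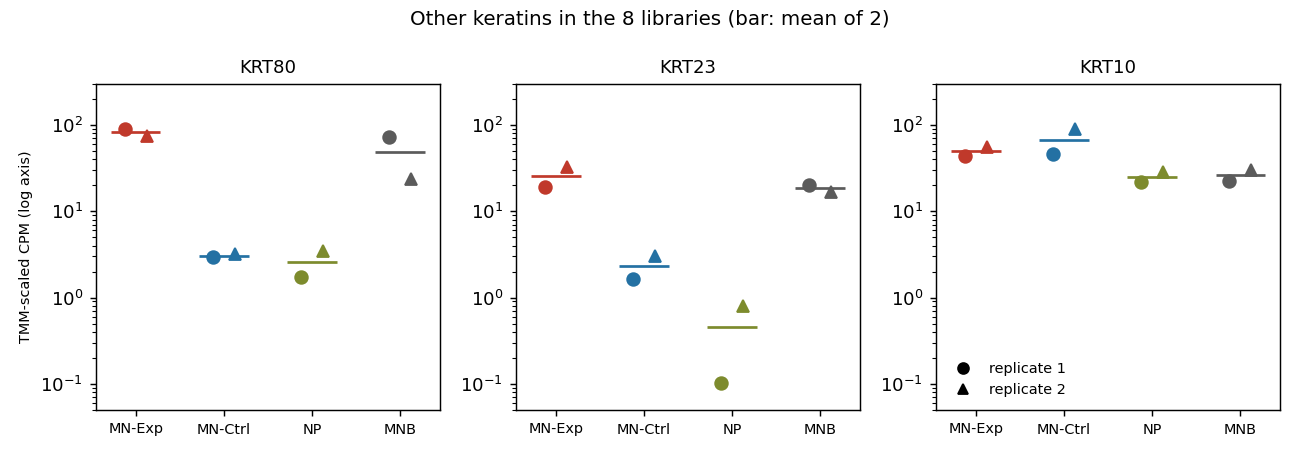
TMM-scaled CPM of KRT80, KRT23 and KRT10 (y axis, logarithmic) in each library by group (x axis; circle, replicate 1; triangle, replicate 2; bar, mean of 2). KRT80 and KRT23 are higher in both MN-Exp and both MNB libraries than in any MN-Ctrl or NP library.

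For each keratin with a mean of at least 5 CPM, the 3 named genes with the most similar pattern over the 8 libraries were found among 9864 candidates by the root mean square difference of centred log2 CPM. This is a description of 8 libraries in 4 groups. The genes were selected on these same libraries, so a likeness in the order of the groups follows from that selection. For KRT20 they were SLC10A2, the ileal bile acid transporter, at a difference of 0.22, OTC, an enzyme of the urea cycle, at 0.5, and OLFM4, a protein of intestinal crypts, at 0.6. SLC10A2 stood at 0.266 ± 0.0169 CPM in MN-Exp, 576 ± 213 CPM in MN-Ctrl, 0.184 ± 0.117 CPM in NP and 0.0373 ± 0.0528 CPM in MNB (SD, n = 2 each). For KRT7 they were CRABP2, a retinoic acid binding protein, at 0.67, the homeobox gene HOXA10 at 0.69 and the adhesion receptor ADGRG2 at 0.77. CRABP2 stood at 257 ± 39.7 CPM in MN-Exp, 0.957 ± 0.0305 CPM in MN-Ctrl, 20.7 ± 3.77 CPM in NP and 253 ± 45.5 CPM in MNB, the same intermediate place of peritoneum as in KRT7. For KRT18 they were MAL2, a membrane protein of polarised epithelial cells, at 0.34, BSPRY at 0.39 and the growth factor receptor FGFR3 at 0.39, and MAL2 stood at 324 ± 49.1 CPM in MN-Exp, 196 ± 39.5 CPM in MN-Ctrl, 5.32 ± 2.11 CPM in NP and 294 ± 21.6 CPM in MNB. For KRT8 they were FOXN2 at 0.29, SPI1, a transcription factor of myeloid cells and B cells, at 0.31, and the spermine synthase SMS at 0.32. KRT4 had the least close neighbours, AHRR at 0.75 and MMP9 and SULT1C2 at 0.9 each. AHRR held the KRT4 order, at 102 CPM in MN-Exp, 25.8 CPM in MNB, 13.3 CPM in MN-Ctrl and 0.375 CPM in NP (means). MMP9, a matrix metalloprotease, stood at 326 ± 181 CPM in MN-Exp and 50.8 ± 26.4 CPM in MN-Ctrl. It stood at 0.871 ± 0.351 CPM in NP and 33.7 ± 4.44 CPM in MNB, so the means of MN-Ctrl and MNB were reversed from KRT4. The MN-Ctrl libraries, at 69.5 and 32.2 CPM, overlapped those of MNB, at 30.6 and 36.9 CPM. In SULT1C2 the MN-Exp libraries, at 44.3 and 16.4 CPM, overlapped those of MNB, at 14.6 and 18.2 CPM.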

How the data were processed

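Per the labels, total RNA was turned into cDNA by Smart-seq2, followed by TruSeq library preparation and Illumina sequencing. The authors deposited unnormalised read counts for each Ensembl gene. The submitters' processing notes name Trim Galore, HISAT2, HTSeq (version 0.11.1) and the Sscrofa11.1 build. Strand and multi-mapping settings are not given in the sources used here. Of 31907 genes, 15029 had a symbol. Totals were 10.28 and 9.92 M counts in MN-Exp, 10.96 and 11.88 M in MN-Ctrl, 7.94 and 9.27 M in NP, and 10.68 and 11.03 M in MNB. Floors, set at 3 counts, cover counting error only. Bounds cover it only for the group at 0 counts, and the other group enters as its plain mean.

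Counts were filtered with filterByExpr over the 4 groups, scaled by TMM and fitted with edgeR 4.0.16 (limma 3.58.1, R 4.3.3) in 1 robust quasi-likelihood model of all 8 libraries, with 4 residual degrees of freedom and a common dispersion of 0.146. All 6 pairwise comparisons were tested. SEs were derived from the F statistic. Each comparison was repeated with DESeq2 1.42.0, with its size factors in edgeR, with plain library totals, without the filter, on only the 2 groups concerned, with a replicate block, and leaving out each library. MN-Ctrl replicate 2 was also left out for genes named beside the keratins, an alternative chosen after seeing the data. The keratins were all named by rule, with up to 4 called members of smallest p and the most abundant member of each gene list, and the 3 genes nearest in pattern (prior count 2, minimum mean 5 CPM). Keratins and lists were chosen with earlier results of these data known. Gene positions come from RefSeq, and no sequence is printed. Shares of each keratin per length, and the ratio of type II to type I keratins, were planned and not computed, since lengths and 4 keratins were not matched.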

Additional observations from a re-analysis of the deposited data

How the results depend on the processing

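The 2 libraries a group limit the size of difference that is called, and depth limits levels near 3 counts. Over the 6 keratins, 6 comparisons and all alternatives, 440 log2 fold changes kept their direction and side of the threshold, 50 were no longer called, 4 became called and 10 changed sign, none of which was called. KRT7 and KRT20 between MN-Exp and MN-Ctrl, and KRT18 and KRT4 against NP, were called under every alternative. Shares of each keratin per length, and the ratio of type II to type I keratins, were not run. The causes of the changes below were not tested.

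The number of keratins called between MN-Exp and MNB was 0 in place of 1 with library totals alone (KRT4 at an adjusted p of 0.146) and 0 to 1 with each library left out. With a library left out it was 3 to 4 for MN-Exp over MN-Ctrl, 2 to 4 for MN-Ctrl over MNB, 3 to 4 for MN-Exp over NP, 4 to 6 for MN-Ctrl over NP and 3 to 4 for NP over MNB. In the fits of 2 groups alone KRT8 was not called between MN-Exp and MN-Ctrl (adjusted p = 0.205), nor KRT8 and KRT15 between MN-Ctrl and NP (adjusted p = 0.171 and 0.17). Over all genes, the calls between MN-Exp and MNB were 7 higher and 9 lower, against 97 and 152 with DESeq2, 148 and 204 with no filter, 206 and 336 with the 2 groups alone, and 3 and 2 with library totals. With the 2 groups alone MN-Ctrl over MNB gave 1258 and 1098 calls, against 1857 and 1829. Leaving out a library gave 673 higher and 619 lower to 3241 and 3183 for MN-Exp over MN-Ctrl, 0 and 0 to 102 and 156 for MN-Exp over MNB, 575 and 772 to 3144 and 3368 for MN-Ctrl over MNB, and 2250 and 2422 to 4232 and 4096 for MN-Ctrl over NP.

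Whether replicate numbers pair the samples is not known here. Deviations of same-numbered libraries correlated at -0.08 to 0.09 across genes. That cannot decide the question without libraries known to share an animal. With the replicate block the count was 3 for MN-Exp over MN-Ctrl (KRT8 at an adjusted p of 0.0677), 0 for MN-Exp over MNB (KRT4 at 0.0506) and 2 for MN-Ctrl over MNB (KRT4 at 0.0648 and KRT15 at 0.0656), and it did not move in the comparisons with NP.

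The log2 fold changes that changed sign were small. KRT8 in MN-Exp over NP, at 0.00, became -0.02 with DESeq2 and with its size factors, -0.12 with library totals, -0.16 without MN-Exp replicate 2 and -0.5 without NP replicate 1, with a range of -0.5 to 0.79 over the libraries left out. KRT20 in MN-Exp over NP became -0.05 with library totals, -0.09 without MN-Exp replicate 2 and -0.28 without NP replicate 1, with a range of -0.28 to 0.62. KRT10 in MN-Exp over MN-Ctrl, at -0.45, became 0.03 without MN-Ctrl replicate 2. KRT18 in MN-Exp over MNB became -0.36 without MN-Exp replicate 2 (range -0.36 to 0.56), and KRT8 in NP over MNB became 0.23 without NP replicate 1 (range -1.08 to 0.23).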

Other observations

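Genes whose proteins anchor keratin filaments at junctions or in the cornified envelope were followed as a list of 11, of which 9 were matched and tested. PPL and EVPL, the plakins periplakin and envoplakin, were higher in MN-Exp than in MN-Ctrl. PPL stood at 44.6 and 64.8 CPM in MN-Exp, 4.68 and 1.31 CPM in MN-Ctrl, 34 and 58.2 CPM in NP, and 58.1 and 48.7 CPM in MNB, so that MN-Ctrl alone was low (MN-Exp over MN-Ctrl, log2 fold change 4.12, SE 0.58, edgeR adjusted p = 0.000837). EVPL stood at 4.4 and 17 CPM in MN-Exp, 2.44 and 4.27 CPM in NP, and 12.5 and 11.6 CPM in MNB. In MN-Ctrl it stood at 0.761 and 0.187 CPM, on only 7 and 1 counts. MN-Exp over MN-Ctrl gave a log2 fold change of 4.32 (SE 0.85, adjusted p = 0.0054). Without MN-Ctrl replicate 2 these log2 fold changes were 3.47 for PPL (adjusted p = 0.000737) and 3.72 for EVPL (adjusted p = 0.0233). DSP, the desmoplakin that ties keratin to desmosomes, was lower in NP than in each mucosa, at 58.7 ± 11.4 CPM in MN-Exp, 39.8 ± 14.2 CPM in MN-Ctrl, 7.63 ± 0.286 CPM in NP and 44.5 ± 9.8 CPM in MNB (SD, n = 2 each; NP over MNB, log2 fold change -2.54, adjusted p = 0.00175). DST, the plakin of hemidesmosomes and muscle, went the other way, at 239 ± 70.9 CPM in NP against 58.8 ± 5.86 CPM in MNB (log2 fold change 2.02, adjusted p = 0.0043). JUP, the most abundant of the list, was called in no comparison, and its MN-Ctrl libraries lay far apart at 310 and 33.9 CPM. Over the list, 2 of 9 were higher and 0 lower in MN-Exp over MN-Ctrl, beside 10.4% of all tested genes higher and 11.3% lower. In MN-Exp over MNB 0 were called by edgeR, where 0.0967% of all tested genes were, and 0 had an unadjusted p under 0.05.

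Among other intermediate filament genes, VIM, the vimentin of mesenchymal and mesothelial cells, was highest in peritoneum. It stood at 279 and 219 CPM in MN-Exp, 211 and 293 CPM in MN-Ctrl, 1758 and 1467 CPM in NP, and 266 and 350 CPM in MNB, and NP did not overlap with any mucosa. VIM was lower in MN-Exp than in NP (log2 fold change -2.69, SE 0.47, adjusted p = 0.00236) and was not told apart between MN-Exp and MNB (log2 fold change -0.31, 95% interval -1.28 to 0.67). Of 6 fibroblast markers 5 were called lower in MN-Exp than in NP, as VIM was, beside 11.8% of all tested genes. DCN was the 1 called higher in NP than in MNB, beside 9.93% of all tested genes. The sum of the 6 lay lower in both MN-Exp libraries than in either MNB library, while the VIM levels of these groups overlapped. Between MN-Exp and MNB 0 of the 6 were called by edgeR, where 0.0967% of all tested genes were, and 4 had an unadjusted p under 0.05. The 6 fibroblast markers summed to 3861 and 3863 CPM in MN-Exp, 2557 and 1116 CPM in MN-Ctrl, 51020 and 69020 CPM in NP, and 13400 and 15040 CPM in MNB. Their part was not tested. DES, the desmin of muscle, was higher in MN-Exp than in MN-Ctrl, at 85 and 143 CPM against 22.8 and 22.4 CPM (log2 fold change 2.33, adjusted p = 0.0148, and 0.0852 without MN-Ctrl replicate 2). DES stood at 9.97 and 7.56 CPM in NP and 66.6 and 19 CPM in MNB. It is 1 of 5 smooth muscle markers, 3 of which were called higher in MN-Exp than in MN-Ctrl, beside 10.4% of all tested genes. The 5 summed to 3942 and 4454 CPM in MN-Exp, 726 and 595 CPM in MN-Ctrl, 607 and 661 CPM in NP, and 3623 and 3650 CPM in MNB. LMNB1, a nuclear lamin, was lower in MN-Exp, at 12.9 and 8.15 CPM against 119 and 21.9 CPM in MN-Ctrl. The log2 fold change was -2.75 (adjusted p = 0.0182), and -3.58 without MN-Ctrl replicate 2. In NP LMNB1 stood at 11.3 and 16.8 CPM and in MNB at 53.8 and 33.35 CPM, with MN-Exp over MNB not called (adjusted p = 0.393). SYNC was also called higher in MN-Exp than in MN-Ctrl (log2 fold change 3.75, adjusted p = 0.0222), on 2 and 0 counts in MN-Ctrl. Of the 10 tested genes of this list, 2 were higher and 1 lower in that comparison, beside 10.4% and 11.3% of all tested genes.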
